A study of Mus musculus with 12 samples.

Results

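Transcripts of genes that act at successive steps of autophagy and mitophagy were measured in mouse heart: Ulk1, Becn1, Map1lc3a, Map1lc3b, Gabarapl1, Sqstm1, Bnip3, Bnip3l, Pink1 and Tfeb. They were chosen by name, as 10 of the 33615 gene symbols in the deposited table, and all 10 had counts and passed the filter on low counts that left 15952 genes for testing. RNA of frozen heart tissue was sequenced in bulk, as 12 libraries that fall into 3 groups of 4. I/R + ML264 hearts had 30 min of ischemia and 2 h of reperfusion with ML264, a compound used as an inhibitor of the transcription factor KLF5. I/R hearts had the same ischemia and reperfusion without it, and Sham hearts had a sham operation, with the same 2 h in their labels. The labels give no strain, sex, age, dose of ML264, time of dosing or region of the heart. Since they also do not tie libraries to animals, the p-values describe the spread among these libraries, which may be technical.

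Autophagy encloses cytoplasm in a double membrane and delivers it to the lysosome. The ULK1 kinase starts the process, beclin 1 helps a lipid kinase complex mark the forming membrane, and proteins of the ATG8 family (LC3 and GABARAP proteins) are attached to that membrane, where receptors such as p62 link cargo to them. Mitophagy is the same route for mitochondria, entered in heart muscle through the receptors BNIP3 and NIX, both known as hypoxia targets, or through the kinase PINK1. TFEB is a transcription factor of lysosome and autophagy genes. Much of this machinery is controlled by protein modification and turnover, so transcript levels are not a measure of autophagic flux.

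The libraries held 22.26 to 29.93 M estimated counts, of which 35.24% to 41.13% were mitochondrially encoded. Summed markers of cardiomyocytes (6 of 6 measured) were 23200 to 27100 CPM (counts for each 1 M in the library) in I/R + ML264, 23600 to 26700 in I/R and 21500 to 25000 in Sham. The 5 endothelial markers summed to 326 to 390 CPM in I/R + ML264, 336 to 365 CPM in I/R and 375 to 463 CPM in Sham, so that every I/R library was below every Sham library. Kdr was the 1 of the 5 that passed the test between I/R and Sham, with a log2 fold change of -0.78 (adjusted p = 0.0323). In that comparison 1 of 6 cardiomyocyte, 1 of 4 smooth muscle and pericyte and 1 of 5 monocyte and macrophage markers passed too. No tested fibroblast, neutrophil, platelet, erythroid, skeletal muscle or adipocyte marker passed, and over all genes 7.75% did. The part of shifts in cell type markers in the results for I/R against Sham was not tested. In such bulk tissue, fewer cells of a type and less RNA per cell cannot be told apart. Transcripts of the Y-linked gene Ddx3y were high in 2 of 4 I/R + ML264 libraries (3 and 4), 2 of 4 I/R libraries (2 and 3) and 4 of 4 Sham libraries. The 4 platelet markers summed to 104 CPM in I/R + ML264 library 4 and 138 CPM in I/R library 4, against 1.88 to 25.0 CPM in the other 10 libraries, and none was at 0 in a whole group. I/R + ML264 library 2 stood apart from its replicates, with a chi-square per gene (the difference between a pair of libraries relative to counting noise) of 44.79 to 69.95 against them, where the other pairs of that group had 18.27 to 27.82. I/R library 1 stood apart likewise, with 41.07 to 59.35 against its replicates, where the other pairs of I/R libraries had 7.36 to 18.52. Sham was not uniform either, with 56.21 between libraries 1 and 2, 40.79 between 2 and 3, and 17.4 to 25.78 for the other pairs.

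None of the 10 genes changed in any of the 3 comparisons by edgeR's quasi-likelihood test at a Benjamini-Hochberg adjusted p under 0.05. Over all 15952 genes, 7.75% were called in I/R against Sham, 0.0502% in I/R + ML264 against I/R and 0.288% in I/R + ML264 against Sham. At an unadjusted p under 0.05, 1 member passed in each comparison, which was Becn1 in the first and second of these and Bnip3 in the third. Over all genes the shares at that unadjusted level were 23.2%, 10.4% and 13.0% in the same order of comparisons. DESeq2 called 1 member, Becn1, in I/R against Sham and 0 in the others, and limma voom called 0 in all 3.

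The differences were also bounded. In I/R against Sham the log2 fold changes of the members ran between -0.06 for Tfeb and 0.45 for Becn1, with 8 positive and 2 negative and a median of 0.16, where the median of all genes was 0.002. The median size of change, regardless of sign, was 0.16 for the members and 0.22 for all genes, which were not matched to the members in level of expression. For I/R + ML264 against I/R the members ran between -0.36 for Becn1 and 0.14 for Bnip3, with a median of 0.05. They ran up to 0.33 in I/R + ML264 against Sham, reached by Bnip3, with a median of 0.1. The 95% interval of the fold stayed within 1.5-fold either way for 8, 8 and 10 members in these comparisons, and within 2-fold for all 10 in each. Map1lc3a and Becn1 were the 2 members whose intervals crossed 1.5-fold. The groups did not overlap for 1, 0 and 1 members in the 3 comparisons, beside 15.8%, 5.62% and 7.37% of all genes. The comparisons share groups, so their values are not independent of each other.

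**Figure D1:**
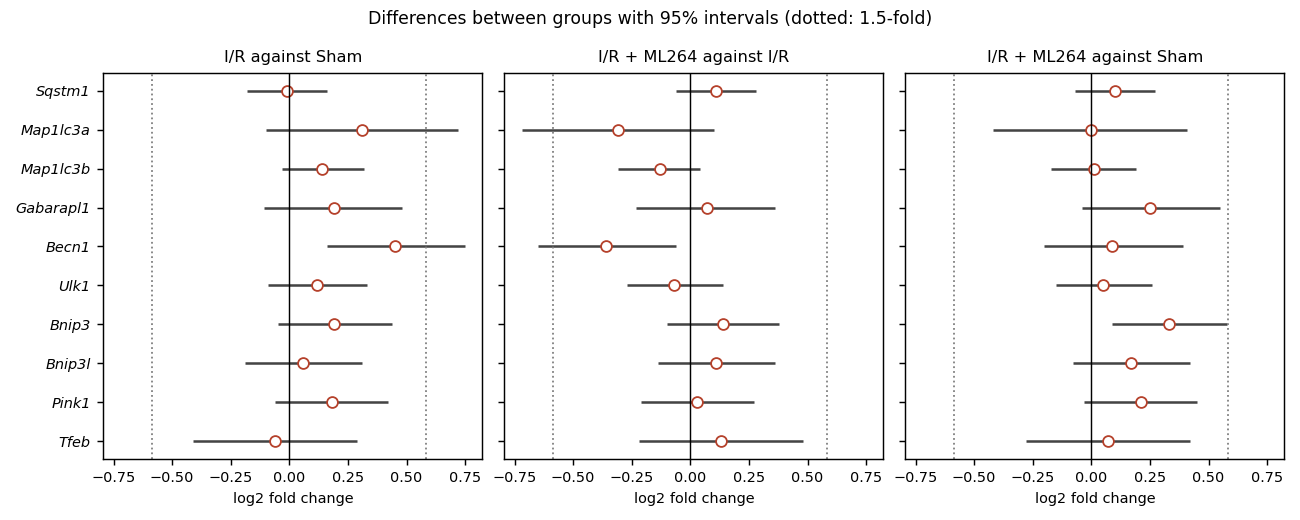
Log2 fold change (x axis) of the 10 members (rows) in the 3 comparisons (panels), with circles for the estimate and lines for the 95% interval. Of the intervals shown, those of Becn1 in I/R against Sham (0.16 to 0.75), Becn1 in I/R + ML264 against I/R (-0.65 to -0.06) and Bnip3 in I/R + ML264 against Sham (0.09 to 0.58) leave out 0, and none of these passed the adjusted test.

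Levels between genes were compared per length of the longest annotated principal transcript, since longer transcripts give more reads. Map1lc3b (median over the 12 libraries 27.0 CPM per kilobase) and Bnip3 (23.9) were the most abundant members. Sqstm1 (13.9) and Pink1 (13.0) followed, then Bnip3l (7.98), Ulk1 (7.79), Map1lc3a (7.65) and Gabarapl1 (6.71), with Becn1 (2.6) and Tfeb (2.24) the lowest. Neighbours in this order overlapped in their ranges over the libraries except at 2 steps, between Bnip3 (lowest library 18.1) and Sqstm1 (highest 15.0), and between Gabarapl1 (lowest 5.37) and Becn1 (highest 3.84). Both steps involve genes with uncertain values, since many of their 31-base words also occur in other genes. The shares were 57.0% for Bnip3, 25.2% for Gabarapl1 and 40.0% for Becn1. The lengths assume the longest principal transcript, 4365 bases for Becn1, and another isoform mixture would move these values. Shorter Becn1 transcripts would raise its value, so its place and the step above it depend on that choice.

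**Figure D2:**
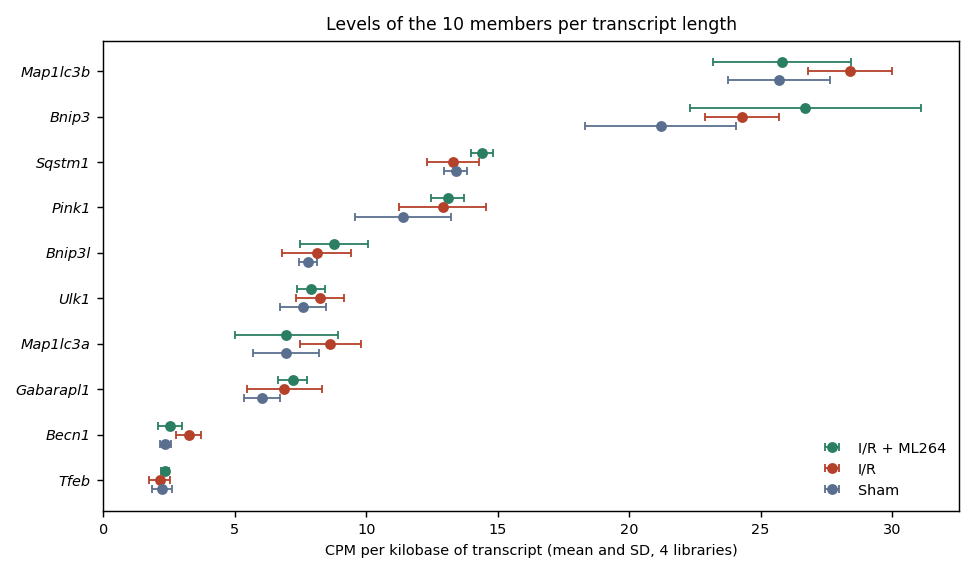
Level of each member in CPM per kilobase of its principal transcript (x axis), as mean and SD of 4 libraries in I/R + ML264, I/R and Sham, top to bottom within a gene. Map1lc3b and Bnip3 lie above the other 8 members in each group, and Becn1 and Tfeb below them.

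Ulk1, the kinase that starts autophagy (mouse GRCm38 chromosome 5, 110784488 to 110810097, minus strand), had 40.8, 39.8, 38.8 and 45.1 CPM in I/R + ML264 libraries 1 to 4, against 44.9, 36.1, 44.3 and 46.8 CPM in I/R and 45.4, 38.1, 34.5 and 40.5 CPM in Sham. All 3 groups overlapped. The log2 fold change was 0.12 ± 0.10 (SE) in I/R against Sham (edgeR adjusted p = 0.512), and I/R + ML264 differed from I/R by -0.07 ± 0.10 (adjusted p = 0.857).

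Becn1, which encodes beclin 1 (chromosome 11, 101285952 to 101302286, minus strand), differed most of the members. It had 11.4, 13.7, 9.31 and 9.66 CPM in I/R + ML264 libraries 1 to 4, against 13.4, 14.4, 11.9 and 16.8 CPM in I/R and 10.0, 10.5, 9.34 and 11.4 CPM in Sham. Every I/R library was above every Sham library, as were 8.54% of all genes, and I/R + ML264 overlapped both other groups. I/R averaged 14.1 ± 2.03 CPM and Sham 10.3 ± 0.862 CPM (SD, n = 4 each), a fold of 1.37 (95% interval 1.12 to 1.68) with an unadjusted p of 0.00479 and an edgeR adjusted p of 0.0571. I/R + ML264 averaged 11.0 ± 2.0 CPM, and its log2 fold change against I/R was -0.36 ± 0.14 (SE), with an adjusted p of 0.374.

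The call on Becn1 in I/R against Sham depended on how it was made. The adjusted p was 0.042 when only these 2 groups were fitted and 0.0319 with DESeq2. It was 0.0471 without I/R library 3 and 0.0327 without I/R + ML264 library 2, and over all alternatives it ranged between 0.0319 and 0.253. The highest Becn1 value was in I/R library 4, the library with the most platelet transcripts. Without I/R library 4 and I/R + ML264 library 4 the log2 fold change was 0.36 (adjusted p = 0.177) in I/R against Sham, and I/R + ML264 differed from I/R by -0.21 (adjusted p = 0.812). With the Y-linked level as a covariate, the log2 fold change in I/R against Sham was 0.3 (edgeR adjusted p = 0.253). Within the libraries with Y-linked transcripts (2 I/R and 4 Sham) it was 0.35 (adjusted p = 0.192). The part of the platelet transcripts and of the Y-linked difference in the Becn1 result was not tested. Of the 31-base words in Becn1 transcripts, 40.0% also occur in other genes, mostly Cntd1, which overlaps it on the other strand. The library kit does not mark strand, so reads of the 2 genes cannot be told apart where they overlap and the Becn1 value is uncertain; Cntd1 itself was assigned 0 to 55 counts per library, and the sum of both gave a log2 fold change of 0.48 (adjusted p = 0.0393) in I/R against Sham.

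Of 21 other initiation and phagophore genes, 3 fell in I/R against Sham and 0 rose, beside 3.17% and 4.58% of all genes. Pik3c3, which encodes VPS34, the lipid kinase that beclin 1 binds, had 12.7, 8.59, 9.74 and 10.8 CPM in I/R + ML264 libraries 1 to 4, against 8.46, 8.69, 9.05 and 9.25 CPM in I/R and 14.9, 13.0, 12.2 and 13.1 CPM in Sham. The I/R libraries lay within 1 CPM of each other. All were below the Sham libraries, as for 7.25% of all genes, and Pik3c3 was named for its call between these groups. Pik3c3 fell in I/R against Sham by 0.59 ± 0.13 on the log2 scale (SE, edgeR adjusted p = 0.0105). Its level in I/R + ML264 was 0.24 ± 0.13 above I/R on that scale (adjusted p = 0.537), a difference that was not called. Rubcn, which encodes rubicon, an inhibitor that binds a form of this complex, fell to 13.1 ± 1.91 CPM in I/R, against 18.0 ± 1.64 CPM in Sham (SD, n = 4 each; adjusted p = 0.0327). Zfyve1, whose product DFCP1 binds the lipid made by VPS34, fell to 3.97 ± 0.772 CPM in I/R, against 5.97 ± 0.191 CPM in Sham (adjusted p = 0.0319). Of the other 18 genes of that list, Pik3r4 (log2 fold change -0.28), Atg14 (-0.09), Nrbf2 (0.26), Uvrag (0.23) and Ambra1 (-0.07), which encode other partners in or around the complex, are named after their values were seen. None of the 18 was called, and these 5 had adjusted p between 0.217 and 0.815.

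**Figure D3:**
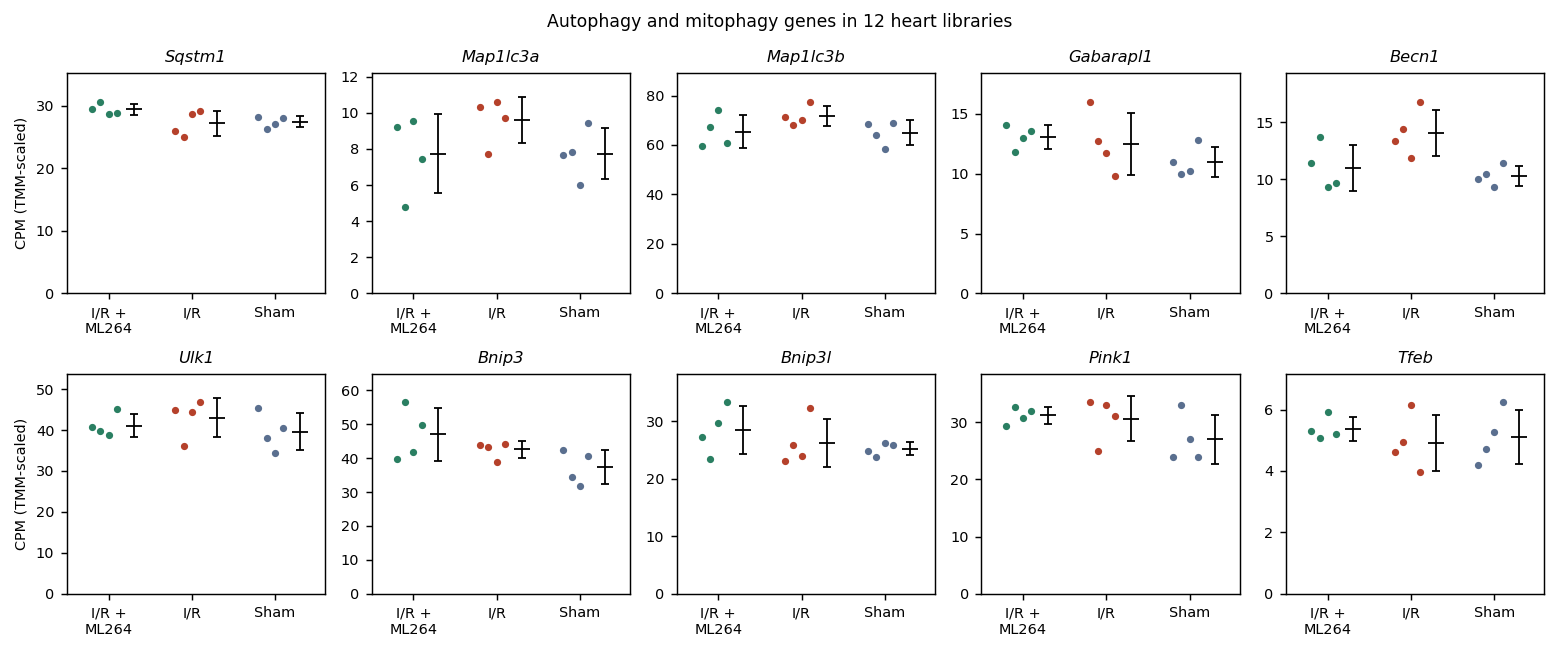
CPM, scaled by TMM factors (y axis, starting at 0), of the 10 members in 12 libraries, with points for libraries 1 to 4 of I/R + ML264, I/R and Sham and bars for the mean and SD beside them. The groups overlap for every member except Becn1 in I/R against Sham and Sqstm1 in I/R + ML264 against Sham.

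Of the ATG8 family, Map1lc3b (LC3B; chromosome 8, 121590361 to 121598760, plus strand) had 59.7, 67.3, 74.0 and 60.7 CPM in I/R + ML264 libraries 1 to 4, against 71.5, 68.1, 70.2 and 77.4 CPM in I/R and 68.6, 64.0, 58.4 and 68.8 CPM in Sham. The lowest I/R library lay just below the highest Sham libraries, and the log2 fold change was 0.14 ± 0.08 (SE, edgeR adjusted p = 0.329). Between I/R + ML264 and I/R it was -0.13 ± 0.08 (adjusted p = 0.611).

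Map1lc3a (LC3A; chromosome 2, 155276297 to 155278073, plus strand) was the most variable member. It had 9.19, 4.78, 9.54 and 7.45 CPM in I/R + ML264 libraries 1 to 4, against 10.3, 7.74, 10.6 and 9.73 CPM in I/R and 7.69, 7.82, 6.01 and 9.44 CPM in Sham. The lowest value was that of I/R + ML264 library 2. The log2 fold change was 0.31 ± 0.19 (SE) in I/R against Sham (adjusted p = 0.368). Against I/R, the I/R + ML264 libraries differed by -0.31 ± 0.19 (adjusted p = 0.607), and groups overlapped in both comparisons.

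Gabarapl1, of the GABARAP branch (chromosome 6, 129533160 to 129542346, plus strand), had 14.1, 11.8, 13.0 and 13.6 CPM in I/R + ML264 libraries 1 to 4, against 16.0, 12.7, 11.7 and 9.77 CPM in I/R and 11.0, 10.0, 10.2 and 12.8 CPM in Sham. The I/R group held both the highest of the 12 values, in library 1, and the lowest. Its log2 fold change was 0.19 ± 0.14 (SE) in I/R against Sham (adjusted p = 0.463), and 0.05 without I/R library 1 (adjusted p = 0.876). It was 0.25 ± 0.14 in I/R + ML264 against Sham (adjusted p = 0.469). Of its 31-base words, 25.2% occur in 1700101I11Rik on the other strand, so its value is uncertain. Gabarap, another family member, averaged 32.4 ± 3.75 CPM in I/R and 27.1 ± 1.12 CPM in Sham (SD, n = 4 each), and was not called (adjusted p = 0.093). Atg4c, which encodes a protease that processes ATG8 proteins, fell to 3.51 ± 0.971 CPM in I/R, against 5.68 ± 0.667 CPM in Sham (n = 4 each), with an adjusted p of 0.0353. It averaged 5.82 ± 0.977 CPM in I/R + ML264, where every library was above every I/R library, as for 2.54% of all genes. That difference was not called (adjusted p = 0.179). Atg4c was named for its call in I/R against Sham, and the same I/R libraries enter both comparisons.

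Sqstm1, which encodes the cargo receptor p62 (chromosome 11, 50199366 to 50210827, minus strand), was the steadiest member. It had 29.4, 30.6, 28.6 and 28.9 CPM in I/R + ML264 libraries 1 to 4, against 26.0, 25.0, 28.6 and 29.2 CPM in I/R and 28.2, 26.3, 27.1 and 28.0 CPM in Sham. Its fold in I/R against Sham was 0.992, with a 95% interval of 0.882 to 1.12 (edgeR adjusted p = 0.955). All 4 I/R + ML264 libraries were above all Sham libraries, as were 3.99% of genes, with a fold of 1.07 (0.954 to 1.21) and an adjusted p of 0.641.

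Among other cargo receptors, 2 of 9 rose in I/R against Sham and none fell, beside 4.58% and 3.17% of all genes. The largest change of the 9 by size was that of Tex264, named after its values were seen. Its log2 fold change was -0.89 and was not called (edgeR adjusted p = 0.0762). Fam134b, also named Retreg1, a receptor for endoplasmic reticulum, had 118, 149, 104 and 156 CPM in I/R + ML264 libraries 1 to 4, against 186, 142, 150 and 186 CPM in I/R and 82.5, 109, 94.6 and 84.0 CPM in Sham. Every I/R library was above every Sham library, as for 8.54% of all genes, and the I/R + ML264 libraries overlapped both other groups. Fam134b, named for its call in I/R against Sham, rose 1.79-fold there (95% interval 1.46 to 2.2, edgeR adjusted p = 0.00384). Against I/R, the fold of I/R + ML264 was 0.795 (0.647 to 0.975), with an adjusted p of 0.423. Optn, which encodes the receptor optineurin, rose to 51.3 ± 3.32 CPM in I/R, against 41.8 ± 4.38 CPM in Sham (SD, n = 4 each; adjusted p = 0.0471).

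Bnip3, a mitophagy receptor of the outer mitochondrial membrane and a known target of hypoxia signalling, lies on chromosome 7 (138890836 to 138909519, minus strand). A stretch of its promoter is shown because Bnip3 was the only 1 of the 7 members with a RefSeq promoter window (250 bases before to 50 after the start, GRCm38.p6) to hold CACGTG, the core of the element bound by TFEB. The stretch is chr7:138909579-138909644, minus strand, and the capitals mark that motif, which begins 108 bases before the start:
Bnip3 promoter: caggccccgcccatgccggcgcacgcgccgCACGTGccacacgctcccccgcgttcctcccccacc
Both strands were searched. CACGTG also contains ACGTG, a form of the core bound by HIF1 and the only form searched. GTAAACA, bound by FOXO factors, was in none of the 7. Of all 32851 mouse promoter windows, 7.15% held CACGTG, 19.62% ACGTG and 3.65% GTAAACA. Map1lc3a, Becn1 and Bnip3l had no window in the table.

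Bnip3 had 39.8, 56.5, 41.7 and 49.8 CPM in I/R + ML264 libraries 1 to 4, against 43.8, 43.4, 39.0 and 44.3 CPM in I/R and 42.4, 34.3, 31.9 and 40.7 CPM in Sham. I/R + ML264 held the 2 highest values and Sham the 2 lowest, and all groups overlapped. The means were 47.0 ± 7.71 CPM in I/R + ML264, 42.6 ± 2.46 CPM in I/R and 37.3 ± 5.04 CPM in Sham (SD, n = 4 each). The fold of I/R + ML264 against Sham was 1.26 (95% interval 1.07 to 1.49), with an unadjusted p of 0.00966 and an edgeR adjusted p of 0.215. In I/R against Sham it was 1.14 (0.967 to 1.35), with an adjusted p of 0.334. The highest value was that of I/R + ML264 library 2, the library that stood apart, and without it the log2 fold change in I/R + ML264 against Sham was 0.23, where it was 0.33 with it. Of its 31-base words, 57.0% occur in AC160336.1 or other genes, so the Bnip3 value is uncertain.

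Bnip3l, which encodes the related receptor NIX (chromosome 14, 66985239 to 67008877, minus strand), had 27.2, 23.4, 29.7 and 33.3 CPM in I/R + ML264 libraries 1 to 4, against 23.0, 25.8, 23.9 and 32.3 CPM in I/R and 24.9, 23.8, 26.2 and 25.9 CPM in Sham. The 2 highest values were those of library 4 of I/R + ML264 and library 4 of I/R, the platelet-rich libraries. NIX is also known for clearing mitochondria from maturing red blood cells. The summed erythroid markers (5 of 5 measured, none at 0) were 13.6, 35.4, 112 and 135 CPM in I/R + ML264 libraries 1 to 4. They were 20.0, 89.2, 21.6 and 86.8 CPM in I/R libraries 1 to 4, and 17.3 to 67.8 CPM in Sham. The part of platelet and erythroid transcripts in the Bnip3l values was not tested. The log2 fold change was 0.06 ± 0.12 (SE) in I/R against Sham (edgeR adjusted p = 0.815) and -0.06 without both of those libraries.

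Pink1, the kinase that marks damaged mitochondria (chromosome 4, 138313409 to 138326307, minus strand), had 29.3, 32.7, 30.8 and 32.0 CPM in I/R + ML264 libraries 1 to 4, against 33.5, 24.9, 33.0 and 31.1 CPM in I/R and 23.9, 33.1, 27.1 and 24.0 CPM in Sham. One Sham library reached the level of the highest I/R libraries and one I/R library that of the Sham libraries. The log2 fold change was 0.18 ± 0.11 (SE) in I/R against Sham (edgeR adjusted p = 0.376) and 0.21 ± 0.11 in I/R + ML264 against Sham (adjusted p = 0.47). Of 15 other mitophagy genes, 0 were called in any comparison. The smallest adjusted p in I/R against Sham was 0.0979, for Tbk1, a kinase that acts on cargo receptors, at 22.6 ± 1.09 CPM in I/R and 18.8 ± 2.0 CPM in Sham (n = 4 each).

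Tfeb (chromosome 17, 47737030 to 47792419, plus strand) was the least abundant member. It had 5.29, 5.07, 5.92 and 5.2 CPM in I/R + ML264 libraries 1 to 4, against 4.61, 4.95, 6.15 and 3.97 CPM in I/R and 4.21, 4.71, 5.28 and 6.24 CPM in Sham. All groups overlapped, and the log2 fold change was -0.06 ± 0.17 (SE) in I/R against Sham (edgeR adjusted p = 0.878).

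Of the TFEB relatives and their regulators, 1 of 8 was called in I/R against Sham, beside 7.75% of all genes. Fnip2, a partner of folliculin in the signalling that holds TFEB in the cytoplasm, had 38.0, 38.0, 21.9 and 32.9 CPM in I/R + ML264 libraries 1 to 4, against 54.8, 55.4, 43.7 and 52.7 CPM in I/R and 30.4, 29.7, 36.3 and 33.4 CPM in Sham. Every I/R library was above every library of the other 2 groups. Over all genes, 8.54% had every I/R library above every Sham library, and 3.08% had every I/R + ML264 library below every I/R library. Fnip2, named for its call in I/R against Sham, rose 1.59-fold there (95% interval 1.29 to 1.97, edgeR adjusted p = 0.0127). The same I/R libraries enter its comparison with I/R + ML264. Its fold in I/R + ML264 against I/R was 0.633 (0.511 to 0.785), with an unadjusted p of 0.000393 and an adjusted p of 0.124, the smallest of any pathway gene in that comparison. Its fold in I/R + ML264 against Sham was 1.01 (0.814 to 1.25), with an adjusted p of 0.981.

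Of 16 lysosome and fusion genes, 1 rose and 1 fell in I/R against Sham, beside 4.58% and 3.17% of all genes. Lamp2, a lysosomal membrane protein, rose to 250 ± 4.82 CPM in I/R, against 216 ± 8.14 CPM in Sham (SD, n = 4 each; adjusted p = 0.0494). Stx17, the syntaxin that fuses autophagosomes with lysosomes, fell to 17.7 ± 1.75 CPM in I/R, against 22.7 ± 2.0 CPM in Sham (adjusted p = 0.0407). Of 5 known transcriptional regulators of the members, Ppargc1a, the coactivator of mitochondrial biogenesis, rose to 678 ± 316 CPM in I/R, against 245 ± 44.4 CPM in Sham (adjusted p = 0.0311). The I/R mean was raised by library 1, at 1130 CPM, where the other I/R libraries had 508, 430 and 641 CPM and the Sham libraries 194 to 302 CPM. Without that library the log2 fold change of Ppargc1a was 1.10 (adjusted p = 0.0423), against 1.47 with it. The other 4, Foxo1, Foxo3, Hif1a and Nfe2l2, had log2 fold changes of 0.02 to 0.47 and were not called.

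Over all 8 lists, 86 other genes of autophagy, mitophagy, the lysosome and transcriptional regulation were measured and tested, with Ppargc1a among the last. In I/R against Sham, 5 rose and 5 fell, together 11.6%, beside 7.75% of all genes, and the median log2 fold change was -0.01. Neither comparison of I/R + ML264 gave a call by edgeR (0 of 86 genes in each). Over all genes the shares were 0.0502% against I/R and 0.288% against Sham. In I/R against Sham over all genes, 731 rose and 505 fell, and with upper-quartile factors 620 rose and 676 fell. The lists were drawn up with earlier results of these data known.

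**Figure D4:**
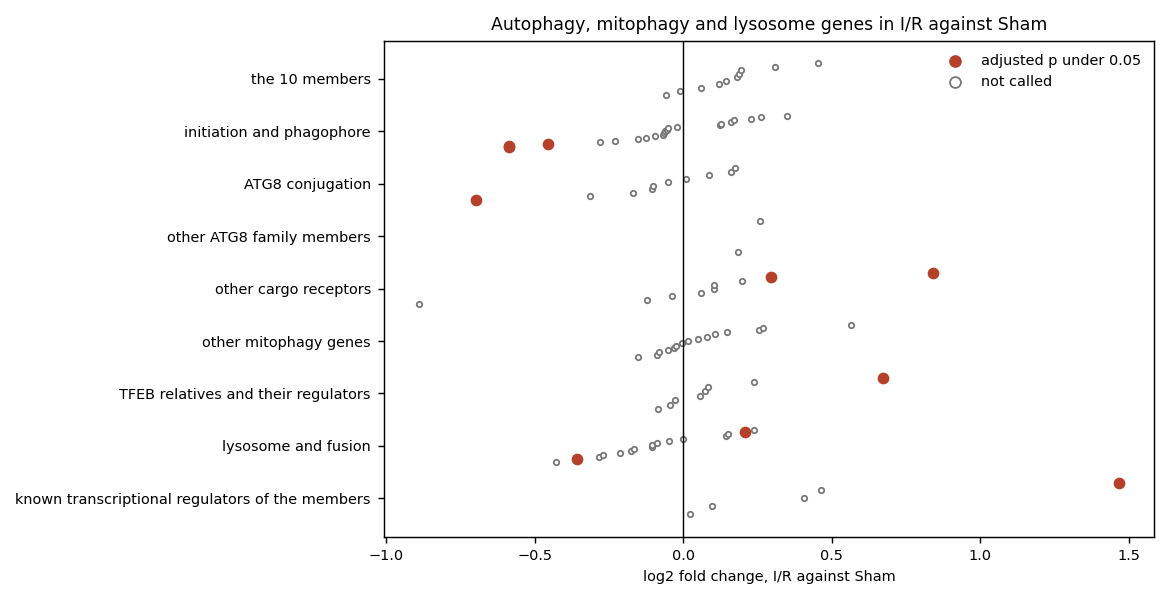
Log2 fold change in I/R against Sham (x axis) of the 10 members and of 86 other genes in 8 lists (rows), with filled points for genes at an adjusted p under 0.05 and open points for the rest. No member is filled, and the 10 filled genes lie on both sides of 0, between -0.70 for Atg4c and 1.47 for Ppargc1a.

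Most of these 10 calls lay close to the threshold. When 1 library was left out at a time, Pik3c3, Fam134b and Fnip2 were called in all 12 fits. Ppargc1a was not called without Sham library 2, 3 or 4 or I/R library 4 (adjusted p up to 0.0919). Atg4c was not called without Sham library 2, 3 or 4 or I/R library 1 or 4 (up to 0.11). Rubcn was not called without Sham library 2, 3 or 4 or I/R library 1, 3 or 4 (up to 0.0935). Zfyve1 was not called without any 1 of the Sham libraries or I/R library 2, 3 or 4 (up to 0.0873). Stx17 was not called without Sham library 2, 3 or 4, I/R library 1, 2 or 4, or I/R + ML264 library 4 (up to 0.113). Optn was not called without Sham library 1, 2 or 4, any 1 of the I/R libraries, or I/R + ML264 library 1 or 4 (up to 0.149). Lamp2 was called in 1 of the 12 fits, the one without I/R + ML264 library 3 (otherwise up to 0.143). Without both platelet-rich libraries, Pik3c3 (adjusted p = 0.0335) and Fam134b (0.0117) were called and the other 8 were not, with adjusted p between 0.0572 for Fnip2 and 0.13 for Stx17. With the Y-linked level as a covariate the same 2 genes were called (0.036 for Pik3c3 and 0.0205 for Fam134b), and the other 8 had adjusted p between 0.0514 for Fnip2 and 0.186 for Stx17, with Ppargc1a at 0.115. Within the libraries with Y-linked transcripts, Pik3c3 (log2 fold change -0.58, adjusted p = 0.0344) and Ppargc1a (0.94, adjusted p = 0.00708) were called. The other 8 were not called there, with adjusted p between 0.0509 for Zfyve1 and Fam134b and 0.304 for Atg4c. Another covariate was the level of Arntl, at 1.57 to 3.94 log2 CPM in Sham and 0.41 to 1.66 in I/R + ML264. It was 3.49, 0.33, 1.06 and 0.17 in I/R libraries 1 to 4. With Arntl as a covariate, Zfyve1 (edgeR adjusted p = 0.129), Stx17 (0.0745) and Lamp2 (0.178) were not called, and the rest of the 10 were.

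**Figure D5:**
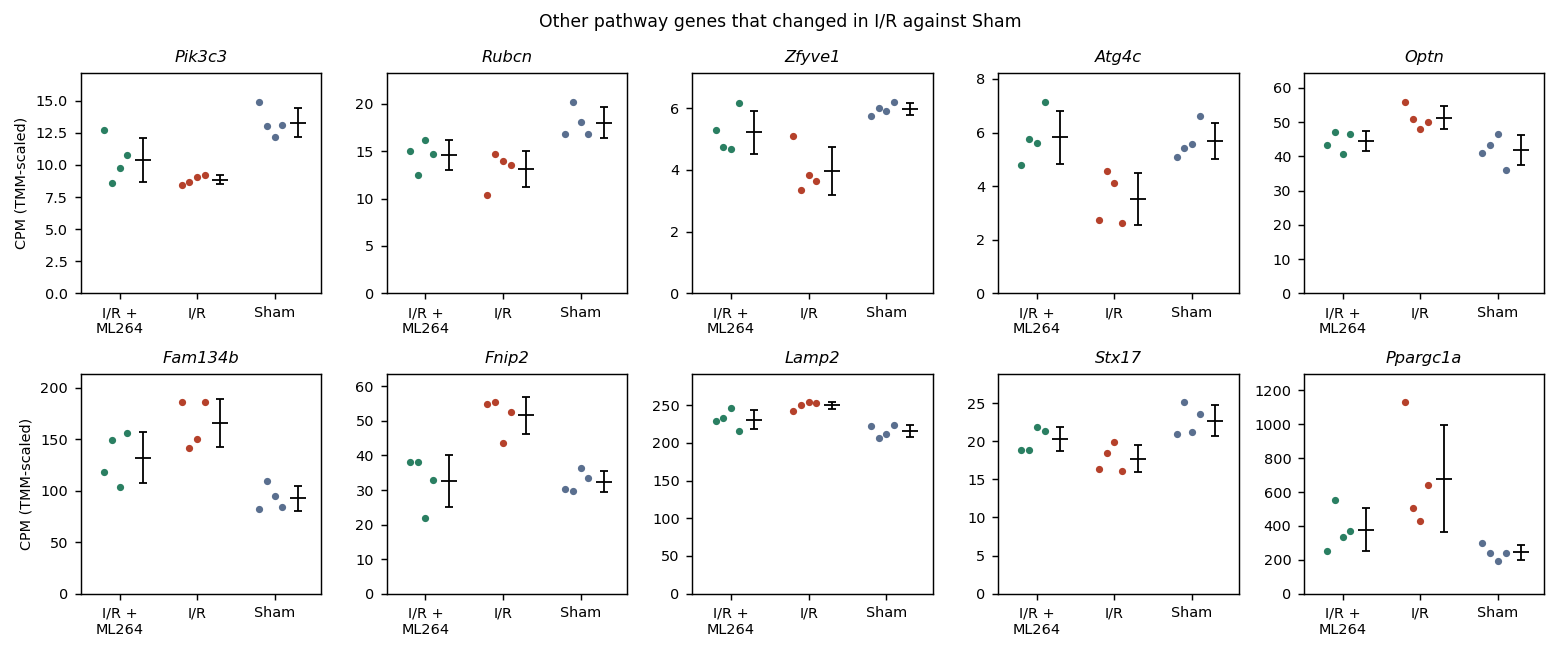
CPM, scaled by TMM factors (y axis, starting at 0), of the 10 called genes of the pathway lists in each library of I/R + ML264, I/R and Sham, with bars for the mean and SD. Every I/R library lies on one side of every Sham library for each gene, as for 15.8% of all genes tested. The genes were picked by their call between these same libraries, so this separation is no added support.

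The members did not vary alike from library to library. The pooled SD of log2 CPM within groups had a median of 0.18 over the members and 0.26 over all genes tested. At a like level of expression the order was the other way, as 3 of the 10 members had a smaller SD than the median of genes within 0.5 log2 of their level. It was 0.07 for Sqstm1, and 1.7% of genes at a like level had a smaller SD. It was 0.33 for Map1lc3a, and 86.5% of genes at a like level had a smaller one. Library 4 of I/R held the highest Map1lc3b, Becn1 and Ulk1 of the 12 libraries and the lowest Gabarapl1 and Tfeb. Library 2 of I/R + ML264 held the highest Sqstm1 and Bnip3 and the lowest Map1lc3a. Library 1 of I/R held the highest Gabarapl1 and Pink1 and the lowest Bnip3l, and Sham library 3 the lowest Map1lc3b, Ulk1 and Bnip3.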

How the data were processed

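The authors deposited 1 table of estimated counts per transcript for 12 heart libraries, not normalized. The tools were FastQC and kallisto, on GRCm38 (mm10), per the submitters' processing notes, which name no versions. Transcript names could not be relied on: of 1969 genes with at least 4 transcripts and 500 counts in every library, 0 had the same leading transcript in all 12. Counts were therefore summed per gene symbol and rounded, with no isoform analysis. Retreg1 was found under the older symbol Fam134b. The values of 1 gene of the lists are not reported here. The 3 comparisons were fitted in one edgeR 4.0.16 model in R 4.3.3 (TMM, filterByExpr with a minimum of 10 counts, robust quasi-likelihood test), with Benjamini-Hochberg adjustment over 15952 genes. CPM values are scaled by TMM factors. A count of 0 allows up to 3 counts, 0.1002 to 0.1348 CPM, for counting error only. Coordinates, lengths and shared 31-base words came from GENCODE M21 (GRCm38); genes with over 25% shared words are called uncertain. Promoters came from RefSeq (GRCm38.p6). The test was checked on simulated data.

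Named genes are the 10 members, each pathway gene called in a comparison, and otherwise the gene of each list with the smallest adjusted p in I/R against Sham; others are marked as picked afterwards. The members and lists were chosen with earlier results of these data known. Alternatives were DESeq2 1.42.0, limma 3.58.1 voom, other factors, filters and covariates, the replicate block, subsets of libraries, and each library left out in turn.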

Additional observations from a re-analysis of the deposited data

Results flagged for a closer look

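Of 30 pairs of a member and a group, 1 held a library far from the other 3. Bnip3 in I/R library 3 was 39.0 CPM, where the other I/R libraries had 43.4 to 44.3 CPM, and the gap was 0.835 of the group's range, above Dixon's 95% critical value for 4 samples. Chance flags about 1 in 20 groups.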

How the results depend on the processing

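Under every alternative run, the counts of members called stayed at 0 between I/R + ML264 and I/R, and between I/R + ML264 and Sham. In I/R against Sham 1 member, Becn1, was called when only the groups compared were fitted, with DESeq2, and when members were joined with the genes that share their words (added after seeing the data), and 0 to 1 with 1 library left out. That join covered Becn1, Bnip3l, Sqstm1 and Map1lc3b, so Bnip3 and Gabarapl1, also called uncertain, kept their own counts. Values that changed sign were small. In I/R against Sham, Bnip3l was -0.05 with Arntl as a covariate, -0.02 in the libraries with Y-linked transcripts and -0.06 without the platelet-rich libraries (also added afterwards), and Tfeb was 0.05 with the Y-linked level as a covariate, 0.12 in the Y-linked libraries and 0.03 without the platelet-rich ones. Between I/R + ML264 and I/R, Gabarapl1 was -0.05 without the platelet-rich libraries and Ulk1 0.06 in the Y-linked ones. Between I/R + ML264 and Sham, Map1lc3a was 0.03 with the Y-linked covariate, 0.14 in the Y-linked libraries, 0.01 with voom and 0.01 without the platelet-rich libraries. There, Map1lc3b was -0.01 with upper-quartile factors, -0.07 with Arntl and -0.01 with voom, and Becn1 was -0.07 with the Y-linked covariate and -0.12 in the Y-linked libraries. With 1 library left out, the log2 fold change in I/R against Sham ranged -0.05 to 0.03 for Sqstm1, -0.06 to 0.12 for Bnip3l and -0.18 to 0.05 for Tfeb. Between I/R + ML264 and I/R it ranged -0.04 to 0.20 for Gabarapl1 and -0.06 to 0.07 for Pink1. Between I/R + ML264 and Sham it ranged -0.12 to 0.17 for Map1lc3a, -0.06 to 0.05 for Map1lc3b, -0.03 to 0.17 for Becn1, -0.01 to 0.12 for Ulk1 and -0.01 to 0.18 for Tfeb. The cause was not tested.

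Over all genes, the 1236 calls in I/R against Sham became 446 with the Y-linked covariate, 634 with Arntl, 553 in the Y-linked libraries, 586 without the platelet-rich libraries and 659 to 1485 with 1 library left out. The 8 calls in I/R + ML264 against I/R became 22 with no filter, 1 with the replicate block, 2 in the Y-linked libraries, 153 with DESeq2, 0 without the platelet-rich libraries and 0 to 85 with 1 library left out. The 46 calls in I/R + ML264 against Sham became 78 with no filter, 19 with the block, 15 with the Y-linked covariate, 12 with Arntl, 27 in the Y-linked libraries, 27 with only the groups compared, 27 with voom, 370 with DESeq2, 13 without the platelet-rich libraries and 9 to 101 with 1 library left out. In I/R against Sham, 731 genes were higher and 505 lower, and with upper-quartile factors 620 and 676. Same-numbered libraries did not deviate together (r of -0.11 to 0.097 over 12 pairs, each across genes), and the replicate block gave 1009 calls in I/R against Sham and 0 members in each comparison; Optn (adjusted p = 0.0772), Lamp2 (0.0884), Stx17 (0.0594) and Ppargc1a (0.0626) were not called in I/R against Sham with the block. A length-scaled alternative was not run, since it needs transcript names.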
